A study of Homo sapiens with 18 samples.

Results

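The 57 genes described here carry out or control DNA replication. They were chosen by symbol from the deposited count table, and all 57 were found among its 25296 rows. They fall into 10 role groups: 6 origin recognition genes, 3 licensing genes, 6 MCM helicase genes, 9 helicase activation genes, 9 polymerase genes, 7 clamp and clamp loader genes, 3 Okazaki fragment genes, 3 single-strand binding genes, 4 chromatin assembly and histone mRNA genes, and 7 genes of the E2F circuit. All 57 passed the filter on low counts.

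RNA was sequenced from U2OS, an established human osteosarcoma line, in 18 libraries. Of 3 derived lines, WT overexpressed the normal form of DNMT3A, a DNA methyltransferase, MUT overexpressed a mutant form, and EV carried the empty retroviral vector MigR1. RNA was taken from untreated cells and from cells kept for 24 h in 10 µM cytarabine, a cytidine analogue that stalls DNA synthesis, and each of the 6 groups had 3 biological replicates. The mutation is R882H in the sample labels and R882C in the series text, and the untreated cells are a vehicle control in the series text alone, so the terms mutant and untreated are used. A single derived line per construct is labelled, so an effect of the construct cannot be told apart from other differences between the lines. Library totals ran from 15391484 to 21850378 counts.

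Replication starts at origins bound by the origin recognition complex. CDC6 and CDT1 load the ring-shaped MCM2 to MCM7 helicase there in G1, geminin (GMNN) blocks further loading in S phase, and the CDC7 kinase with its partner DBF4, together with CDC45 and the GINS complex, turns the loaded ring into a moving helicase. Most of these genes are transcribed before S phase by E2F factors, which the retinoblastoma protein RB restrains.

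DNMT3A was read first as a check of the labels. Levels are in CPM, a gene's count relative to the library total, with that total scaled by the library's TMM factor. DNMT3A was measured at 26.2 to 27.5 CPM in untreated EV, at 129 to 139 CPM in untreated WT and at 500, 615 and 254 CPM in untreated MUT, where replicate 3 was the lowest. After cytarabine the ranges were 45.5 to 49.6 CPM in EV, 166 to 182 CPM in WT and 515 to 532 CPM in MUT. The mesenchymal genes VIM, SPARC, COL1A1 and RUNX2 were present in every group. Not every listed mesenchymal gene was tested: 7 were. Among them COL1A2 and S100A6 rose and VIM and CDH2 fell after cytarabine in all 3 lines. Of the leukocyte genes, SPI1 had group means up to 0.196 CPM, PTPRC up to 1.06 CPM and CD68 from 1.49 to 3.28 CPM. Of the endothelial genes, PECAM1 had group means up to 0.243 CPM, CDH5 from 0.476 to 5.55 CPM and VWF from 0.617 to 3.48 CPM, and VWF rose after cytarabine in all 3 lines. The epithelial genes KRT8 and KRT18 were also expressed, KRT8 at a mean of 342 CPM in untreated EV and 71.8 CPM in untreated WT and KRT18 at 336 to 504 CPM. CDH1, also epithelial, rose and KRT18 fell after cytarabine in all 3 lines. The part of these genes in the results was not tested.

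In each line cytarabine lowered some replication genes and raised others, and MCM5 and MCM7 were among the 3 genes with the most negative changes in each line. An effect was called at an adjusted p under 0.05 in edgeR's quasi-likelihood test, with Benjamini-Hochberg adjustment over 18226 tested genes. In EV, 4 members rose and 21 fell, where 26.1% of all genes rose and 22.9% fell. In WT, 12 rose and 12 fell, against 26.3% and 22.7% of all genes. In MUT, 15 rose and 19 fell, against 30.4% and 25.9%. Called in either direction were 43.9%, 42.1% and 59.6% of the members in EV, WT and MUT, beside 49.1%, 49% and 56.3% of all genes. The median log2 fold change of the members was -0.15 in EV, 0.01 in WT and -0.10 in MUT, and that of all genes was 0.05, 0.03 and 0.05. The share called in either direction was thus near that of all genes in each line. Split by direction it was not near in EV, where only 4 of 57 members rose beside 26.1% of all genes. There 21 of 57 fell, beside 22.9%. Without replicate 1 of treated EV, the members that rose in EV numbered 7.

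**Figure D1:**
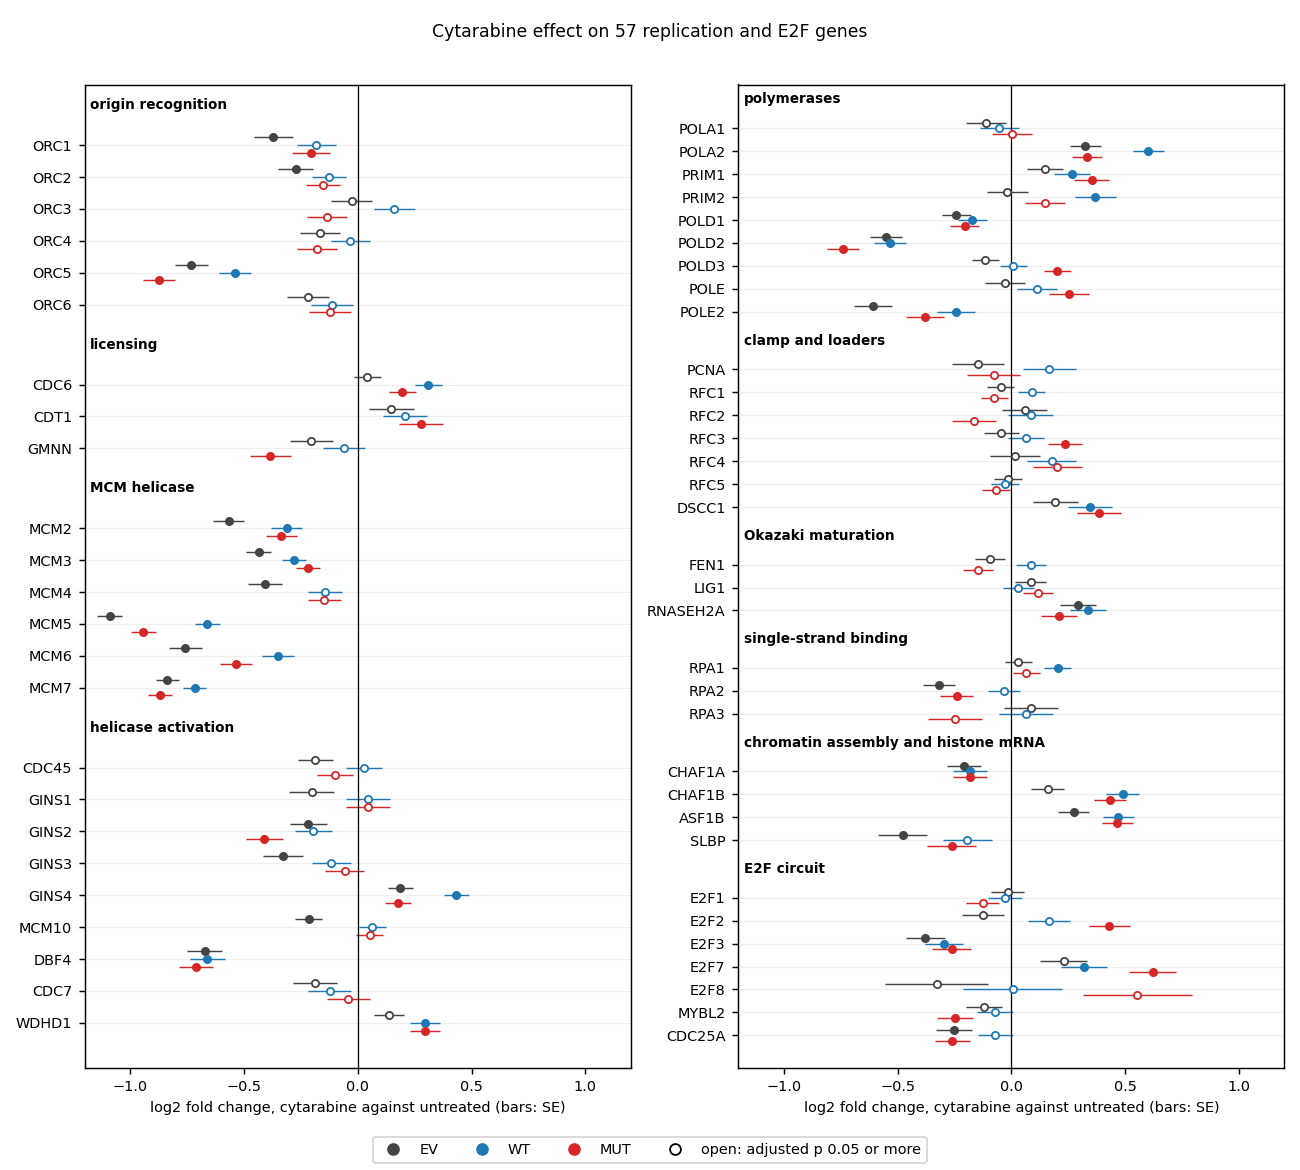
Log2 fold change of each of the 57 genes, cytarabine-treated against untreated, in EV (grey), WT (blue) and MUT (red), with bars of 1 standard error and genes ordered by role group. Filled points have an adjusted p under 0.05. MCM5 in EV lies farthest to the left, at -1.09, and of the clamp and loader genes DSCC1 in WT and MUT and RFC3 in MUT have filled points.

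Across lines, 12 members fell in all 3: ORC5, MCM2, MCM3, MCM5, MCM6, MCM7, DBF4, POLD1, POLD2, POLE2, CHAF1A and E2F3, or 21.1% of the members beside 16.4% of all genes. In the other direction, 4 members rose in all 3: GINS4, POLA2, RNASEH2A and ASF1B, or 7.02% beside 18.9%. In every alternative fit except that on library totals, 7 of the first set (ORC5, MCM2, MCM5, MCM6, MCM7, DBF4 and POLD2) and 2 of the second (POLA2 and ASF1B) kept their calls in all 3 lines. Opposite calls for the same member did not occur. For 17 members, among them E2F1, PCNA, POLA1, FEN1 and LIG1, no line gave a call. Bulk RNA cannot tell fewer cells in S phase apart from less RNA per cell.

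The size of small effects depended on the scale. TMM factors lay between 0.862 and 0.961 in the untreated libraries and between 1.04 and 1.11 in the treated ones. When libraries were scaled by their totals alone, an alternative added after the data were seen, the median of all genes moved up by 0.19 in EV, 0.18 in WT and 0.26 in MUT. Members then rose and fell in numbers of 16 and 11 in EV, 28 and 6 in WT, and 27 and 6 in MUT, and among all called genes the share that rose went from 53.2% to 74.2% in EV, from 53.6% to 73.9% in WT and from 54.0% to 76.7% in MUT. On that scale POLD1 and CHAF1A in WT, and ORC1, MCM3, POLD1, RPA2, CHAF1A and MYBL2 in MUT, lay above 0 in place of below it. All changes below are on the TMM scale, that is, relative to the bulk of genes.

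Among the origin recognition genes ORC5 fell in each line. In EV, 3 of 6 fell, in WT 1 and in MUT 2, and none rose in edgeR, at an unadjusted p under 0.05 or in DESeq2; on library totals the group's median was -0.06 in EV, 0.06 in WT and 0.09 in MUT. ORC5, an ATPase subunit of the complex, was at 49.8, 51.6 and 49.6 CPM in untreated EV and at 29.9, 32.2 and 29.0 CPM after cytarabine. In WT its values were 51.2, 50.4 and 56.7 CPM untreated and 37.0, 36.3 and 35.5 CPM treated, and in MUT 52.9, 55.5 and 59.9 CPM untreated and 28.8, 32.7 and 30.3 CPM treated. Treated and untreated libraries did not overlap in any line. The log2 fold change was -0.73 (SE 0.07, adjusted p = 1.1e-07) in EV, -0.54 (SE 0.07, adjusted p = 4.0e-06) in WT and -0.87 (SE 0.07, adjusted p = 6.7e-09) in MUT. ORC1, the subunit whose level is tied to the cell cycle, fell by 0.37 in EV and by 0.20 in MUT, where its adjusted p was 0.045.

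Licensing factors did not move together, and none was called in EV. CDC6, the ATPase that loads MCM with the origin recognition complex, stood at 177, 182 and 186 CPM in untreated EV and 175, 200 and 187 CPM in treated EV, which overlap. In WT it went from 167, 163 and 174 CPM to 204, 214 and 206 CPM, and in MUT from 172, 174 and 183 CPM to 201, 202 and 203 CPM, with no overlap in either. CDC6 rose by 0.31 (SE 0.06, adjusted p = 0.00023) in WT and by 0.19 (SE 0.06, adjusted p = 0.0088) in MUT, and its change in EV was 0.04 (SE 0.06, adjusted p = 0.59). CDT1, which brings MCM to the origin, was at 99.0, 97.7 and 94.6 CPM in untreated EV and 102, 109 and 111 CPM in treated EV. Its WT values were 91.7, 92.5 and 89.8 CPM untreated and 98.0, 111 and 107 CPM treated, and its MUT values were 97.7, 105 and 142 CPM untreated and 143, 135 and 140 CPM treated. Treated EV and WT libraries all lay above untreated ones, and in MUT the untreated replicate 3 lay within the treated range. CDT1 rose by 0.28 in MUT (SE 0.10, adjusted p = 0.020 in edgeR), and its changes of 0.15 in EV and 0.21 in WT were not called. The call in MUT was lost in 6 of 14 alternative fits.

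GMNN, the inhibitor of CDT1, changed with the other sign from CDT1 in each line, and both were called in MUT alone. Its levels were 65.1, 62.2 and 62.5 CPM in untreated EV and 58.1, 49.1 and 57.3 CPM in treated EV. They were 68.9, 71.7 and 71.8 CPM against 65.4, 68.8 and 69.3 CPM in WT, and 76.8, 80.1 and 105 CPM against 65.1, 67.8 and 68.1 CPM in MUT. The WT groups overlapped and the other groups did not. GMNN fell by 0.38 in MUT (SE 0.09, adjusted p = 0.0015), with -0.20 in EV (adjusted p = 0.079) and -0.06 in WT (adjusted p = 0.61).

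The MCM helicase gave the widest change. All 6 genes fell in EV, and 5 of 6 fell in WT and in MUT, where MCM4 gave -0.14 (SE 0.07, adjusted p = 0.11) and -0.15 (SE 0.07, adjusted p = 0.094). The group's median was -0.66 in EV, -0.33 in WT and -0.44 in MUT, and on library totals it was -0.48, -0.15 and -0.18, with 6, 3 and 3 genes called lower and with MCM4 in WT and MCM3 and MCM4 in MUT above 0 but not called. MCM5 was measured at 259, 269 and 267 CPM in untreated EV and at 124, 122 and 127 CPM after cytarabine. The WT libraries gave 230, 228 and 227 CPM untreated and 142, 150 and 141 CPM treated, and the MUT libraries 240, 245 and 256 CPM untreated and 129, 125 and 131 CPM treated. Treated libraries were lower in every line with no overlap. The log2 fold changes of MCM5 were -1.09 (SE 0.05, adjusted p = 4.3e-11), -0.66 (SE 0.05, adjusted p = 1.1e-08) and -0.94 (SE 0.05, adjusted p = 1.1e-10) in EV, WT and MUT.

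MCM7 followed closely. It had 1016, 1031 and 1030 CPM in untreated EV against 573, 570 and 580 CPM treated, 1011, 1026 and 998 CPM in untreated WT against 614, 616 and 616 CPM treated, and 1201, 1259 and 1278 CPM in untreated MUT against 671, 667 and 709 CPM treated. Again no libraries overlapped, and the untreated MUT libraries were the highest of all. MCM7 fell by 0.84, 0.72 and 0.87 in EV, WT and MUT, and MCM6 fell by 0.76, 0.35 and 0.54. MCM2, at 250, 259 and 255 CPM in untreated EV and 163, 181 and 171 CPM in treated EV, fell by 0.57 there, by 0.31 in WT and by 0.34 in MUT. In WT its libraries gave 248, 243 and 250 CPM untreated and 203, 198 and 196 CPM treated, and in MUT 264, 310 and 256 CPM untreated and 227, 212 and 217 CPM treated. The treated values of MCM2 were below the untreated ones in each line, and untreated MUT replicate 2 stood apart above its own group. MCM2 overlaps TPRA1 on the opposite strand, listed with 15.5% as many counts, which fell by 0.46, 0.49 and 0.49. MCM3 fell by 0.44, 0.28 and 0.22.

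**Figure D2:**
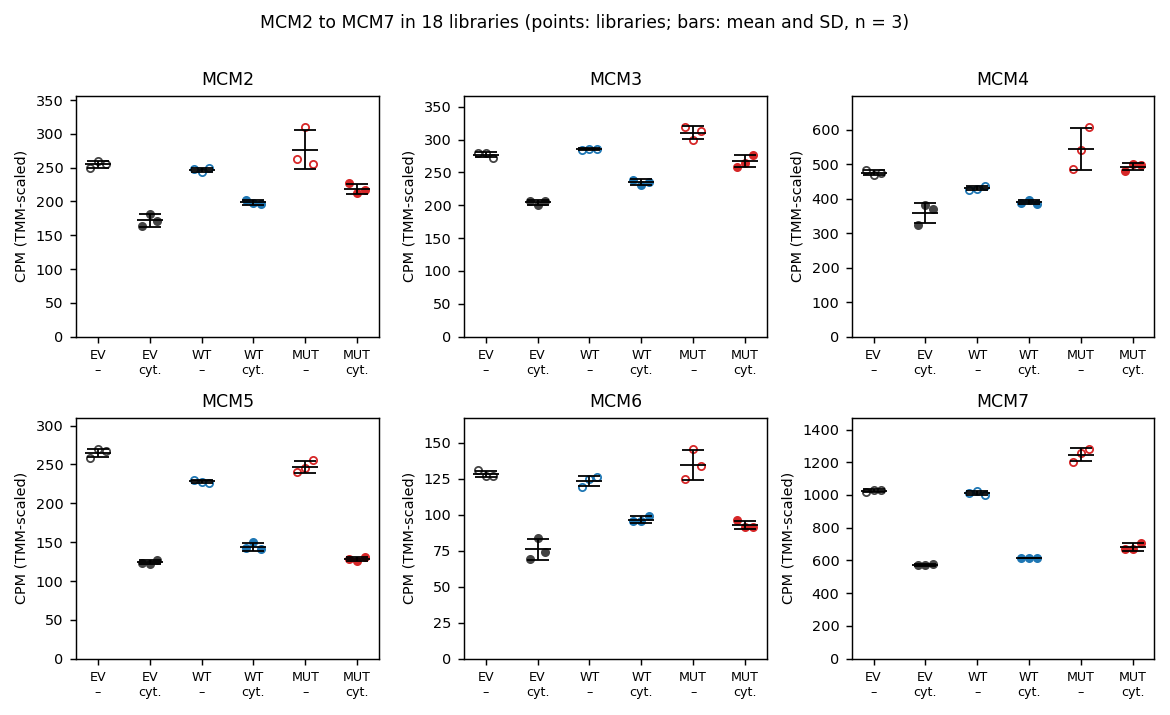
CPM (TMM-scaled) of MCM2 to MCM7 in the 18 libraries, by line and treatment, with bars for the mean and SD of 3 libraries. Treated libraries lie below untreated ones in each line for MCM2, MCM3, MCM5, MCM6 and MCM7, and for MCM4 the MUT groups overlap.

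The MCM genes were also a smaller share of the members' counts after cytarabine, a quantity that needs no scaling between libraries. MCM2 to MCM7 held 33.5 ± 0.210% (SD, n = 3) of the counts of all 57 genes in untreated EV and 25.3 ± 0.283% after cytarabine. The share was 32.6 ± 0.136% and 25.6 ± 0.205% in WT, and 33.8 ± 0.562% and 26.9 ± 0.440% in MUT. The highest treated library of all had 27.4% and the lowest untreated one 32.5%, so the groups did not overlap. Summed over the 6 genes, the mean level was 2427 CPM untreated and 1510 CPM treated in EV, a change of -37.8%, and the changes in WT and MUT were -27.8% and -31.8%. MCM7 weighs most in this sum and in the share. In untreated EV it had 1016, 1031 and 1030 CPM of sums of 2418, 2437 and 2425 CPM. In treated EV it had 573, 570 and 580 CPM of 1461, 1540 and 1529 CPM. The other 51 members changed in sum by -7.57%, 1.80% and -5.76% in EV, WT and MUT. Per kilobase of exon, the 6 genes were not at one level: in untreated EV, MCM7 had 207 CPM per kb, the highest of the 57 genes, and MCM6 had 31.0 CPM per kb, the lowest of the 6.

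**Figure D3:**
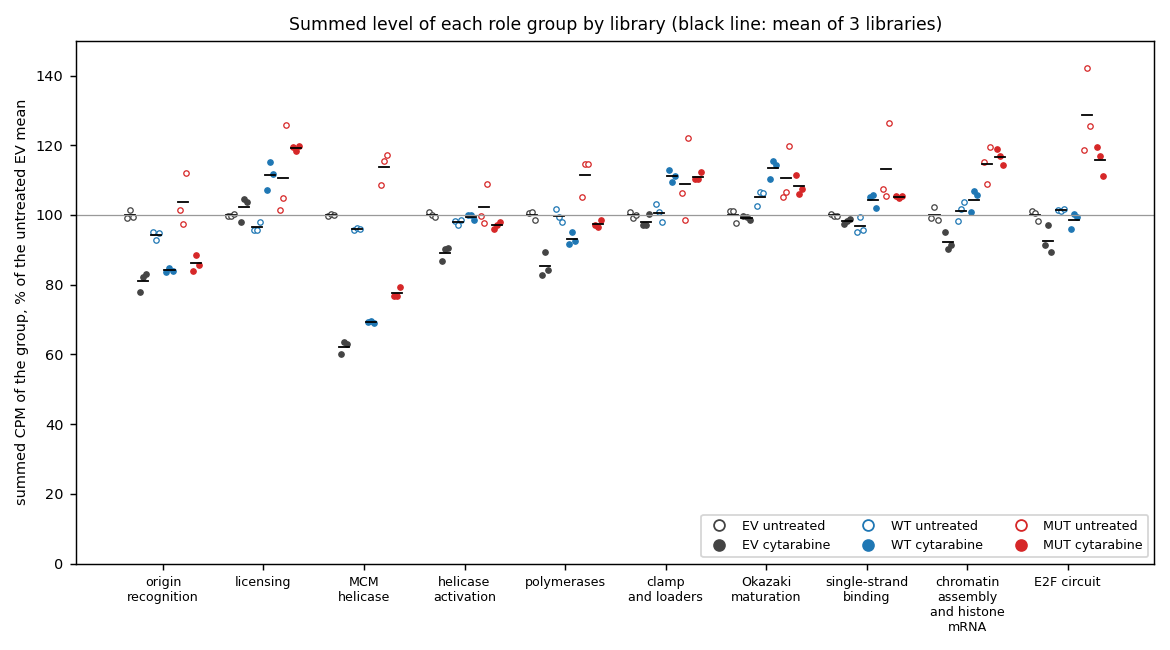
Summed CPM of each role group in each library, as a percentage of the mean of the untreated EV libraries, with open points untreated, filled points treated and a line at each group's mean. The MCM helicase drops most in each line, and the untreated MUT libraries spread most.

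Among the genes that switch the helicase on, DBF4, the activating subunit of the CDC7 kinase, fell in every line. It was at 94.2, 89.1 and 82.1 CPM in untreated EV and 51.0, 56.3 and 59.3 CPM treated, at 90.8, 84.4 and 87.7 CPM in untreated WT and 55.9, 56.96 and 53.4 CPM treated, and at 93.0, 90.1 and 108 CPM in untreated MUT and 58.7, 58.7 and 60.5 CPM treated. All treated libraries were lower, by 0.67, 0.66 and 0.71 on the log2 scale (SE 0.08 each, adjusted p = 7.2e-07, 8.4e-07 and 2.2e-07 in edgeR). Its processed pseudogene DBF4P1, listed with 23.6% as many counts, fell by 0.64, 0.53 and 0.42, and SLC25A40, which overlaps DBF4 on the opposite strand, rose by 0.32, 0.30 and 0.69. How reads were divided among these 3 is not given in the sources used here, so the DBF4 value is uncertain. CDC7 itself was not called, at -0.19, -0.12 and -0.04.

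The GINS subunits, which bind CDC45 and MCM in the active helicase, split. GINS4 rose by 0.19 (adjusted p = 0.0091), 0.43 (adjusted p = 2.9e-06) and 0.18 (adjusted p = 0.011). It was at 94.1, 95.6 and 97.0 CPM in untreated EV and 105, 112 and 110 CPM treated, at 101, 100 and 106 CPM in untreated WT and 137, 139 and 139 CPM treated, and at 107, 116 and 109 CPM in untreated MUT and 124, 123 and 128 CPM treated. Each treated group was above its untreated group. GINS2, which overlaps GSE1 on the opposite strand (listed with 120% as many counts), fell by 0.22 in EV and by 0.41 in MUT, and GINS3 fell by 0.33 in EV. CDC45 and GINS1 were called in no line. MCM10, a scaffold for helicase activation, fell by 0.22 in EV and gave 0.06 in WT and 0.05 in MUT. WDHD1, which ties polymerase alpha to the helicase, rose by 0.29 in WT and 0.30 in MUT.

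Subunits of the same polymerase did not move together. POLD2, the B subunit of polymerase delta, was at 356, 355 and 341 CPM in untreated EV and 237, 249 and 232 CPM treated, at 375, 356 and 355 CPM in untreated WT and 239, 252 and 259 CPM treated, and at 383, 458 and 461 CPM in untreated MUT and 267, 249 and 264 CPM treated. No libraries overlapped between treatments. POLD2 fell by 0.55 (SE 0.07, adjusted p = 2.4e-06), 0.53 (SE 0.07, adjusted p = 3.5e-06) and 0.74 (SE 0.07, adjusted p = 4.1e-08). The catalytic subunit POLD1 fell by 0.24, 0.17 and 0.20, while POLD3 rose by 0.20 in MUT, with -0.11 in EV and 0.01 in WT. In polymerase epsilon, the accessory subunit POLE2 fell by 0.61, 0.24 and 0.38, and the catalytic POLE gave -0.03 in EV, 0.11 in WT and a rise of 0.25 in MUT.

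Polymerase alpha, which makes the RNA-DNA primers, showed the same kind of split. POLA1, its catalytic subunit, was at 56.4, 55.4 and 58.8 CPM in untreated EV and 49.7, 58.6 and 49.9 CPM treated, at 50.5, 51.3 and 53.2 CPM in untreated WT and 49.9, 51.4 and 48.0 CPM treated, and at 59.5, 65.5 and 48.9 CPM in untreated MUT and 57.8, 60.2 and 56.2 CPM treated. These groups overlapped in each line, and the fold changes of -0.11, -0.05 and 0.00 were not called. POLA1 overlaps the pseudogene EEF1B2P3 on the opposite strand, listed with 174% as many counts, which fell by 0.61 in MUT. POLA2, the B subunit, was at 51.9, 46.9 and 49.8 CPM in untreated EV and 66.6, 60.1 and 59.6 CPM treated, at 52.1, 53.2 and 52.1 CPM in untreated WT and 78.8, 80.7 and 79.6 CPM treated, and at 50.8, 55.8 and 56.1 CPM in untreated MUT and 63.6, 72.4 and 68.6 CPM treated. Its treated libraries were all higher, with rises of 0.33 (SE 0.07, adjusted p = 0.00056), 0.60 (SE 0.07, adjusted p = 5.3e-07) and 0.33 (SE 0.07, adjusted p = 0.00034). POLA2 overlaps AP000944.2 on the same strand, listed with 20.5% as many counts and called in no line. The primase subunits PRIM1 and PRIM2 were called higher in WT, by 0.27 and 0.37, and PRIM1 also in MUT, by 0.35. PRIM1 shares its locus with NACA, listed with 616% as many counts, which fell in all 3 lines.

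The sliding clamp and its loaders gave few calls. PCNA, the clamp that holds polymerases on DNA, was at 246, 232 and 235 CPM in untreated EV and 213, 208 and 224 CPM treated, at 259, 255 and 242 CPM in untreated WT and 290, 277 and 281 CPM treated, and at 266, 201 and 344 CPM in untreated MUT and 250, 252 and 266 CPM treated. Treated EV lay below and treated WT above the untreated libraries, and the MUT groups overlapped, with untreated replicates 2 and 3 as the extremes. The changes of -0.15, 0.17 and -0.08 (SE 0.12 each) were not called. None of the 7 genes of the group was called in EV, by edgeR, at an unadjusted p under 0.05 or by DESeq2, and 1 rose in WT and 2 in MUT. DSCC1, part of a clamp loader tied to sister chromatid cohesion, rose by 0.34 in WT (SE 0.10, adjusted p = 0.0061) and by 0.39 in MUT (SE 0.10, adjusted p = 0.0022). Its libraries gave 87.6, 86.8 and 84.5 CPM untreated and 85.2, 107 and 104 CPM treated in EV, 94.9, 83.7 and 80.0 CPM and 112, 106 and 110 CPM in WT, and 90.3, 82.4 and 111 CPM and 121, 127 and 122 CPM in MUT. The EV groups overlapped and those of WT and MUT did not. RFC3 rose by 0.24 in MUT, and RFC1, RFC2, RFC4 and RFC5 were not called in any line. RFC4 overlaps EIF4A2 on the opposite strand, listed with 652% as many counts and called in no line.

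Of the Okazaki fragment genes, only RNASEH2A, the catalytic subunit of ribonuclease H2, was called. It was at 46.1, 45.1 and 41.7 CPM in untreated EV and 50.3, 54.9 and 57.6 CPM treated, at 51.6, 47.2 and 51.8 CPM in untreated WT and 66.8, 59.7 and 63.7 CPM treated, and at 58.0, 58.5 and 69.0 CPM in untreated MUT and 74.5, 69.2 and 70.8 CPM treated. The treated libraries were higher in each line, in MUT by a narrow margin. It rose by 0.29 (adjusted p = 0.0045), 0.34 (adjusted p = 0.0014) and 0.21 (adjusted p = 0.027; SE 0.08 each). HOOK2, which overlaps it on the opposite strand with 32.5% as many counts, rose by 0.84, 0.57 and 0.79, and the use of strand in counting is not given in the sources used here. RPA2, the middle subunit of the single-strand binding complex RPA, was at 75.3, 72.3 and 72.0 CPM in untreated EV and 60.7, 57.6 and 57.8 CPM treated, at 58.6, 64.4 and 69.2 CPM in untreated WT and 62.2, 62.0 and 63.7 CPM treated, and at 80.8, 70.7 and 85.2 CPM in untreated MUT and 66.0, 66.3 and 68.1 CPM treated. Only the WT groups overlapped. RPA2 fell by 0.32 in EV (adjusted p = 0.0011) and by 0.24 in MUT (adjusted p = 0.0071), with -0.03 in WT. RPA1 rose by 0.20 in WT, with 0.03 in EV and 0.07 in MUT, and RPA3 was not called. RPA1 overlaps SMYD4 on the opposite strand, listed with 18.2% as many counts, which rose by 0.51 in WT and 0.46 in MUT. FEN1, called in no line, overlaps FADS2 on the same strand and TMEM258 on the opposite one, listed with 80.6% and 36.1% as many counts.

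The chromatin assembly genes went both ways. ASF1B, a histone H3-H4 chaperone of dividing cells, was at 55.8, 57.5 and 49.7 CPM in untreated EV and 65.3, 63.7 and 68.0 CPM treated, at 56.2, 56.0 and 55.9 CPM in untreated WT and 76.0, 81.1 and 75.8 CPM treated, and at 60.4, 54.3 and 63.2 CPM in untreated MUT and 83.7, 83.0 and 79.0 CPM treated. Each treated library exceeded each untreated one of its line. ASF1B rose by 0.27 (adjusted p = 0.0028), 0.47 (adjusted p = 1.2e-05) and 0.46 (adjusted p = 1.0e-05; SE 0.07 each). The CAF-1 subunits differed: CHAF1A fell by 0.21, 0.18 and 0.18, and CHAF1B rose by 0.49 in WT and 0.43 in MUT, with 0.16 in EV. CHAF1A overlaps UBXN6 on the opposite strand, listed with 94.8% as many counts, which fell by 0.28, 0.50 and 0.54. CHAF1B overlaps MORC3 on the same strand, listed with 49.3% as many counts and called in no line. SLBP, which binds the stem-loop of histone mRNAs, was at 66.5, 75.9 and 72.0 CPM in untreated EV and 49.8, 49.8 and 54.3 CPM treated, at 68.4, 64.0 and 67.8 CPM in untreated WT and 56.0, 60.0 and 59.0 CPM treated, and at 72.4, 56.98 and 90.3 CPM in untreated MUT and 59.9, 60.7 and 62.8 CPM treated. The MUT groups overlapped and the others did not. SLBP fell by 0.48 in EV (SE 0.11, adjusted p = 0.0012) and by 0.26 in MUT (SE 0.11, adjusted p = 0.045), with -0.19 in WT.

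The E2F factors did not move as a group. E2F1, the activator bound by RB, was at 107, 115 and 108 CPM in untreated EV and 111, 106 and 108 CPM treated, and at 108, 113 and 103 CPM in untreated WT and 104, 105 and 109 CPM treated. In MUT it was at 124, 143 and 153 CPM untreated and 137, 128 and 120 CPM treated. Treated and untreated libraries overlapped in each line, and the fold changes were -0.02, -0.03 and -0.13 (SE 0.07 each, adjusted p = 0.88, 0.78 and 0.15 in edgeR). On library totals the EV value was 0.17 and was called. E2F3, another activator, was at 47.3, 45.6 and 50.6 CPM in untreated EV and 33.9, 38.9 and 37.7 CPM treated, at 60.0, 62.6 and 63.7 CPM in untreated WT and 52.6, 51.2 and 47.9 CPM treated, and at 59.4, 55.3 and 46.0 CPM in untreated MUT and 44.8, 47.6 and 41.7 CPM treated. It fell by 0.38, 0.30 and 0.26, and its groups overlapped in MUT only.

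The remaining activator, E2F2, was at 29.9, 34.6 and 33.9 CPM in untreated EV and 27.1, 30.3 and 32.9 CPM treated, at 31.2, 38.5 and 35.1 CPM in untreated WT and 40.7, 39.6 and 37.3 CPM treated, and at 46.9, 43.6 and 38.5 CPM in untreated MUT and 58.2, 57.9 and 57.9 CPM treated. Only the MUT groups were apart. E2F2 rose by 0.43 in MUT (SE 0.09, adjusted p = 0.00045), with -0.12 in EV and 0.17 in WT. E2F7, a repressor of E2F targets, was at 54.8, 60.3 and 64.9 CPM in untreated EV and 65.1, 71.0 and 74.9 CPM treated, at 58.2, 58.7 and 57.03 CPM in untreated WT and 71.8, 75.7 and 69.7 CPM treated, and at 55.1, 47.9 and 36.9 CPM in untreated MUT and 68.2, 75.5 and 71.8 CPM treated. Its treated libraries were higher in all lines. E2F7 rose by 0.32 in WT (SE 0.10, adjusted p = 0.014) and by 0.62 in MUT (SE 0.10, adjusted p = 4.3e-05), and gave 0.23 in EV (SE 0.10, adjusted p = 0.071). CDC25A, the phosphatase that activates the kinase CDK2, fell by 0.25 in EV and by 0.26 in MUT.

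**Figure D4:**
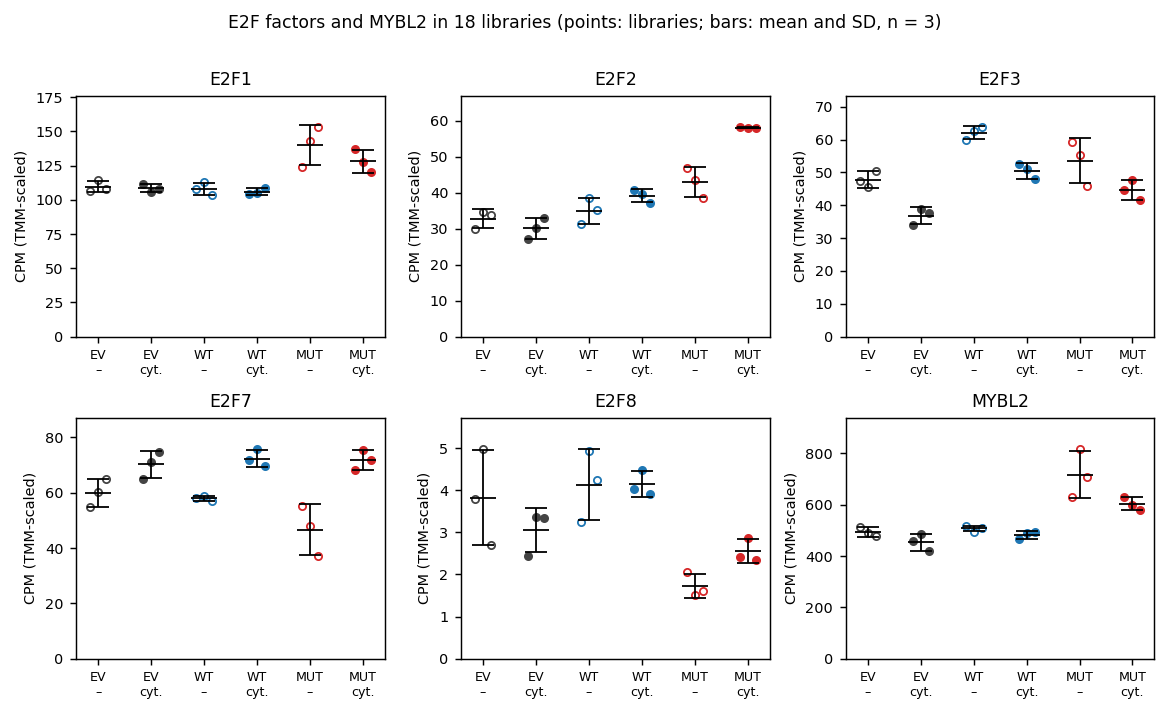
CPM (TMM-scaled) of 5 E2F genes and MYBL2 in the 18 libraries, with bars for the mean and SD of 3 libraries; each panel has its own axis, which starts at 0. E2F2 is highest in treated MUT, E2F7 is higher in treated libraries of each line, and E2F8 is at most 4.97 CPM.

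The promoters of the members were read from RefSeq (GRCh38.p14), in windows of 250 bases before to 50 after each start. Windows were at hand for 49 of the 57 genes. The E2F sequences TTTCCCGC, TTTGGCGC, TTTGCCGC or TTTCGCGC stood on either strand in 23 of 49 members (46.9%) and in 3.99% of 27305 genes. CCAAT was present in 57.1% of members and 39.7% of genes, and the sequences TTTGAA or TTCGAA, known as CHR elements, in 8.16% and 19.5%. All 4 MCM genes with a window, MCM2, MCM3, MCM6 and MCM7, and all 3 licensing genes held an E2F sequence, while none of the 4 chromatin assembly genes did. Members with and without the sequence had median cytarabine effects of -0.19 and -0.11 in EV, -0.05 and 0.05 in WT, and -0.08 and -0.11 in MUT. The 6 stretches printed here are the 150 bases before the start, 5′ to 3′ on the gene's strand, with E2F sequences in capitals. MCM6 and MCM7 fell and carry them, POLA2 rose and E2F1 was called in no line and both carry them, and POLD2 fell and ASF1B rose without them. They are chr2:135876444-135876593 (minus strand), chr7:100101398-100101547 (minus), chr11:65261812-65261961 (plus), chr20:33686386-33686535 (minus), chr7:44123549-44123698 (minus) and chr19:14136590-14136739 (minus).
MCM6: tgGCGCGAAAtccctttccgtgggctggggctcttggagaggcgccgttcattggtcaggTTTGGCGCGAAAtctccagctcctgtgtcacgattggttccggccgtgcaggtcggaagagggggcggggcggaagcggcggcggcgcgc
MCM7: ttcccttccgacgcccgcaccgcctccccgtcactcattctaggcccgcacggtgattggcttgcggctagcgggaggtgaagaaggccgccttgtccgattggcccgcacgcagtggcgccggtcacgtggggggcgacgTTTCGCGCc
POLA2: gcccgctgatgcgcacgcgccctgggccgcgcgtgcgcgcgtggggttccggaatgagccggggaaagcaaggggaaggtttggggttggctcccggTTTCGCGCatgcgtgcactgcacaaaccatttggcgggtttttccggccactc
E2F1: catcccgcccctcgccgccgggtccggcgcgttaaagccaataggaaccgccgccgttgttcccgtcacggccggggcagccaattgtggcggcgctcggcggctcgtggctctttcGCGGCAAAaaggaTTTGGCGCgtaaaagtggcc
POLD2: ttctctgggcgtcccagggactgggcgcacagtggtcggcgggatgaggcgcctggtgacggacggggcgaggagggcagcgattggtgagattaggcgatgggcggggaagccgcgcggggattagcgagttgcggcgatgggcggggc
ASF1B: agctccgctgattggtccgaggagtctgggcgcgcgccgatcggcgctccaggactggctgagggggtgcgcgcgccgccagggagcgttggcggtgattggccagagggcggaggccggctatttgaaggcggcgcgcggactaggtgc

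Genes that fell, a gene that rose and a gene not called thus share these letters. In MCM6 the longer run of capitals holds 2 sequences that overlap on opposite strands, and in MCM7 the sequence ends just before the start. In E2F1 there are 2, on opposite strands. A match is a description of letters and not a measured binding site.

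Genes around the members were read from 3 further lists. Of 30 other replication factors, 11 fell in all 3 lines and 2 rose, where 16.4% of all genes fell and 18.9% rose in all 3; the same shares apply to the counts of the next lists. POLE3, a histone-fold subunit of polymerase epsilon, fell by 0.94, 0.71 and 0.99 in EV, WT and MUT, and SSRP1, a subunit of the histone chaperone FACT, by 0.75, 0.71 and 0.81. DONSON, a replication fork factor, rose by 0.30, 0.51 and 0.43. Of 27 tested regulators of RB and E2F, 7 rose in all 3 lines and 3 fell. CDKN1A, the p21 inhibitor of cyclin-dependent kinases, rose by 1.14, 1.34 and 1.39 and the inhibitor CDKN2B by 0.82, 0.66 and 0.93, while E2F4, a factor that acts with RB relatives as a repressor, fell by 0.99, 0.92 and 0.86 and the kinase CDK4 by 0.68, 0.49 and 0.78. Of 30 genes of G2 and mitosis, 16 fell in all 3 lines, led by CDC20, the activator of the anaphase-promoting complex, at -1.18, -1.34 and -1.58, and the kinase PLK1 at -0.95, -1.11 and -1.22, and 1 rose. The median of these mitotic genes was -0.23, -0.38 and -0.34. Their part in the member values was not tested.

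Whether the lines answered differently was tested gene by gene as a difference of cytarabine effects. For WT minus EV, 1 of 57 members was called, where 0.285% of all genes were called (0.143% higher and 0.143% lower). That member was MCM5, whose fall was smaller in WT than in EV by 0.43 (SE 0.08, adjusted p = 0.019 in edgeR). It was lost in 10 of 12 fits that left out 1 library, with differences of 0.40 to 0.45 and adjusted p up to 0.091, and the only fits that kept it left out treated WT replicate 3 or treated EV replicate 2. Unadjusted p in edgeR was under 0.05 for 13 members, all with a difference above 0. Of all differences, 53 of 57 were above 0, beside 9441 of 18226 for all genes. For MUT minus EV no member was called (0.214% of all genes, 0.154% higher and 0.0604% lower), with E2F2 at 0.55 (adjusted p = 0.076 in edgeR). There 13 members had an unadjusted p under 0.05, all with a difference above 0. For MUT minus WT none was called either (1% of all genes, 0.51% higher and 0.494% lower), with MCM5 at -0.28 (adjusted p = 0.081 in edgeR). Here 9 members had an unadjusted p under 0.05, of which 1 had a difference above 0. DESeq2 called 3, 1 and 4 members in these comparisons. Without untreated MUT replicate 1, 2 or 3, edgeR called 2, 1 and 1 members for MUT minus EV and 2 each time for MUT minus WT. Without treated EV replicate 2 it called 2 members for WT minus EV. Shares of all genes called are given here for the main fit alone, and the counts at an unadjusted p have no share of all genes beside them.

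Before treatment, more members were higher than lower in MUT. Against EV, 14 members were higher and 3 lower in MUT, where 9.88% of all genes were higher and 10% lower (19.9% in either direction). Against WT, 19 were higher and 3 lower in MUT, beside 11.7% and 9.54% (21.2%). WT against EV gave 1 higher and 4 lower, beside 4.3% and 7.36% (11.7%). On library totals the counts were 9 higher and 6 lower against EV, and 7 and 4 against WT. Among all called genes the share higher in MUT then went from 49.6% to 29.6% against EV. Against WT that share went from 55.1% to 32.2%. In every alternative fit except that on totals, 3 of the 14 higher calls against EV (LIG1, RNASEH2A and MYBL2) and 2 of the 19 against WT (CHAF1B and MYBL2) were kept. Of the 3 lower calls in each comparison, 0 were kept against EV and 1 (E2F8) against WT. These comparisons share libraries. MYBL2, a factor that takes over from E2F in S phase and G2, was at 515, 490 and 478 CPM in untreated EV, 518, 495 and 510 CPM in untreated WT and 630, 816 and 709 CPM in untreated MUT. All 3 MUT libraries exceeded the others. MYBL2 was higher in MUT by 0.54 (SE 0.08, adjusted p = 0.00013) against EV and by 0.50 (SE 0.08, adjusted p = 0.00019) against WT. E2F8, a repressor like E2F7, was low throughout, at 3.80, 4.97 and 2.71 CPM in untreated EV, 3.24, 4.92 and 4.23 CPM in untreated WT and 2.06, 1.51 and 1.60 CPM in untreated MUT. The MUT libraries were the lowest, on 41, 24 and 28 counts of E2F8, and E2F8 in MUT minus EV was -1.14 on the log2 scale, with SE 0.24 and an adjusted p = 0.0023. In MUT minus WT it was -1.25, with an adjusted p = 0.00093 in edgeR.

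In the WT line the 2 members farthest from EV were POLE2 and E2F3. POLE2 was at 32.6, 31.3 and 34.3 CPM in untreated EV and 23.3, 26.3 and 24.3 CPM in untreated WT, with no overlap and a log2 difference of -0.41 (SE 0.08, adjusted p = 0.0024). E2F3, whose untreated values are already given, was higher in WT by 0.38 (SE 0.08, adjusted p = 0.0056). MCM7 was higher in untreated MUT than in EV by 0.28 and than in WT by 0.30, and LIG1, the ligase that seals Okazaki fragments, by 0.44 and 0.29.

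The untreated MUT libraries also scattered most. The median coefficient of variation of the members was 9.98% there and 3.09% to 5.97% in the other 5 groups, and replicate 3, the library with the lowest DNMT3A of its group, was the highest of its group for 35 of 57 members. That library also had the lowest TMM factor, 0.862. Both values cover the members alone, with no value over all genes beside them, so they do not show a scatter particular to the members. The part of this scatter in the counts was not tested. Called members for MUT against EV numbered 27 without untreated MUT replicate 2 and 18 without replicate 3, and only 3 when the 2 groups compared were fitted alone. Against WT they numbered 13 without untreated WT replicate 1, 12 without its replicate 3, and 3 when fitted alone. For WT against EV, called members numbered 2 or 3 without 1 of 5 libraries (WT replicates 2 and 3, each EV replicate) and 17 when fitted alone. The share of all genes called in these fits is not given, so the counts show how the calls depend on the fit alone.

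Under cytarabine, members that differed from EV were higher. In WT, 16 members were higher than in treated EV and none lower (all genes 7.41% and 9.12%, together 16.5%), and in MUT 27 were higher and none lower (6.85% and 7.13%, together 14%). At an unadjusted p under 0.05, 0 and 1 members were lower in edgeR, and DESeq2 called 0 lower in both. MUT against WT gave 13 higher and 6 lower (10.4% and 9.48%, together 19.8%). The highest EV library lay below the lowest MUT library for 36 members, as for 17.1% of all genes, and below the lowest WT library for 30 members, as for 19.1%. MCM2, MCM3, MCM4, MCM6 and MCM7 were higher in treated MUT than in treated EV, by 0.35, 0.38, 0.46, 0.29 and 0.25, and MCM5 gave 0.05 (adjusted p = 0.65).

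**Figure D5:**
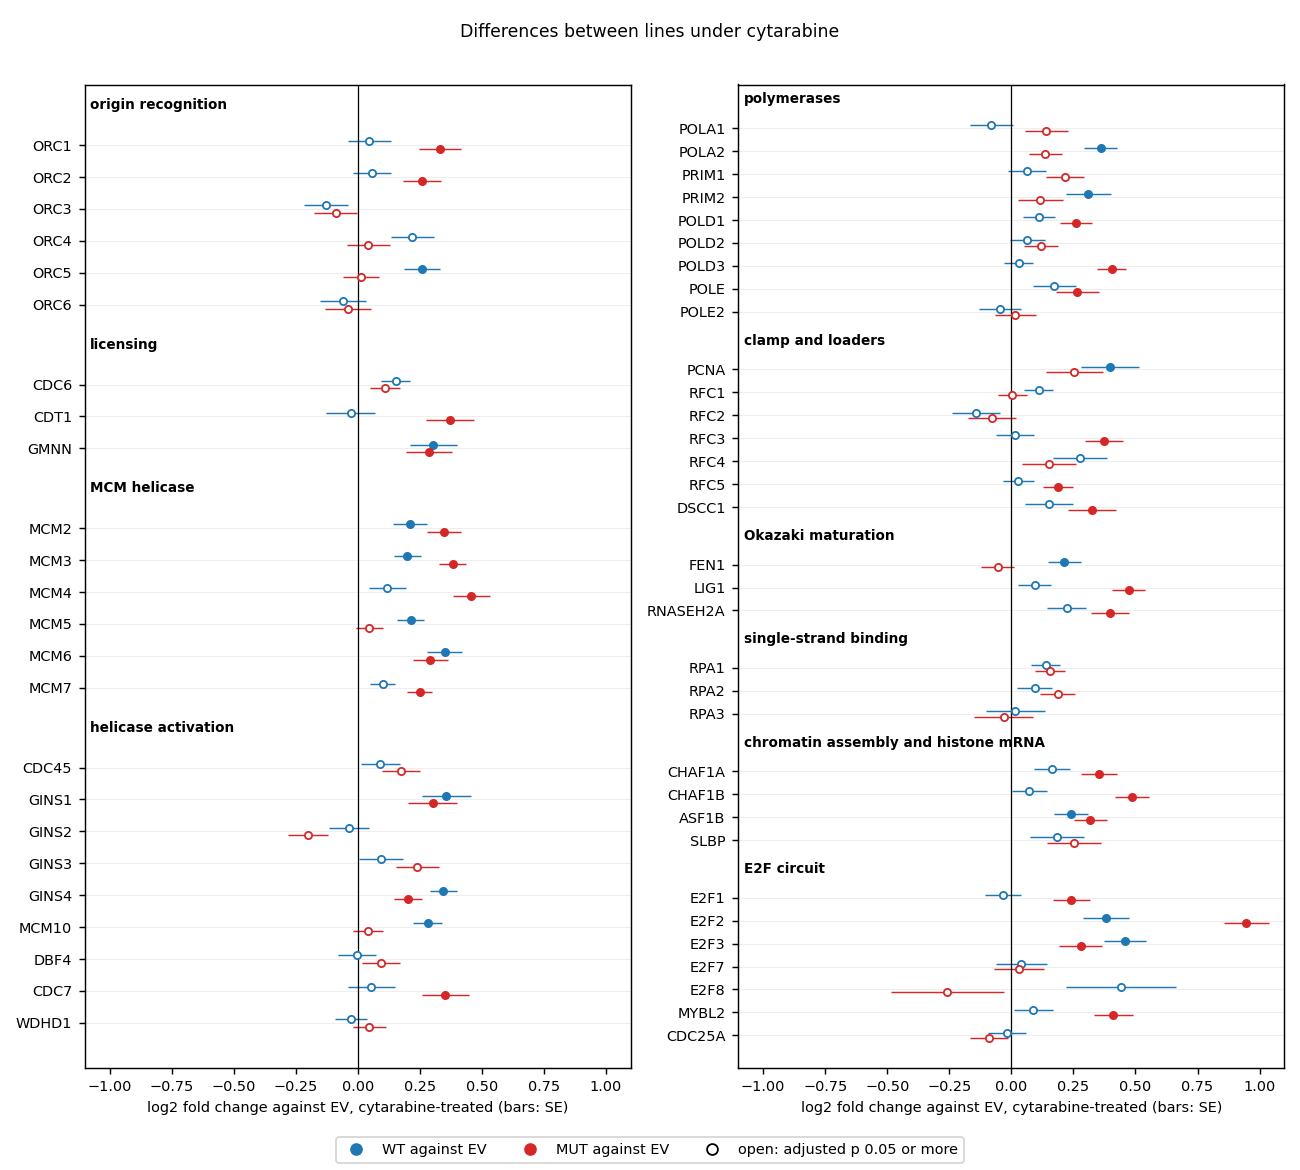
Log2 fold change of each member in cytarabine-treated WT (blue) and MUT (red) against treated EV, with bars of 1 standard error and filled points for an adjusted p under 0.05. Both sets share the 3 treated EV libraries. E2F2 in MUT lies farthest to the right.

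E2F2 gave the widest of these differences. In its treated libraries, already given, every MUT library exceeded every WT library, and every WT library exceeded every EV library. E2F2 was higher in MUT than in EV by 0.95 (SE 0.09, adjusted p = 2.0e-06), in MUT than in WT by 0.57 (SE 0.09, adjusted p = 0.00017) and in WT than in EV by 0.38 (SE 0.09, adjusted p = 0.0076). LIG1 was at 73.4, 68.5 and 66.5 CPM in treated EV, 69.4, 77.2 and 76.0 CPM in treated WT and 95.2, 96.0 and 97.9 CPM in treated MUT. The MUT libraries were apart from the rest, and LIG1 was higher in MUT than in EV by 0.47 (SE 0.07, adjusted p = 1.0e-04). In every alternative fit except that on library totals, 13 members kept a higher call in MUT against EV: MCM2, MCM3, MCM4, MCM7, POLD3, RFC3, LIG1, RNASEH2A, CHAF1A, CHAF1B, ASF1B, E2F2 and MYBL2. In WT against EV 6 did: MCM6, GINS4, MCM10, POLA2, E2F2 and E2F3. Without treated EV replicate 1, called members numbered 15 in MUT and 10 in WT, and without treated WT replicates 1 or 2 they numbered 9 and 7 in WT. MUT against WT gave 12 called members without MUT replicate 1 or 3 or WT replicate 2 or 3, and 34 when the 2 groups were fitted alone. For these fits too the share of all genes called is not given.

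Position was read beside these values. All 5 members on chromosome 19, CHAF1A, RNASEH2A, ASF1B, LIG1 and POLD1, were higher in treated MUT than in treated EV, with a median of 0.35. The other 1266 tested genes of chromosome 19 had a median of 0.10, against -0.01 for all genes. Within 5 Mb of CHAF1A (chromosome 19, 4402662 to 4445019, plus strand), 242 tested neighbours had a median of 0.21, beside 0.35 for CHAF1A. Around LIG1 (chromosome 19, 48115445 to 48170604, minus strand), 287 neighbours had a median of 0.03, beside 0.47 for LIG1, and around E2F2 (chromosome 1, 23506430 to 23531221, minus strand) 141 neighbours had 0.10, beside 0.95. Around RFC3, 33 neighbours had a median of 0.28 in treated MUT against EV, beside 0.37 for RFC3. In treated MUT against WT, 17 neighbours of MCM4 had 0.24, beside 0.34, and 46 neighbours of MCM10 had -0.22, beside -0.24. In untreated MUT against WT, 64 neighbours of CHAF1B had 0.35, beside 0.47. Some members thus lay near the median of their region and others far from it. The part of position in the member values was not tested.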

How the data were processed

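The authors deposited estimated counts per gene symbol for 18 libraries, of which 70.4% were whole numbers, and a second table of 19591 genes with a normalized signal. Tested on the files, that deposited signal equalled 1 plus the product of a library factor and the estimated count (relative deviations up to 8.18e-06). Only its factors were used, as an alternative scaling. Per the labels, RNA was extracted with a Direct-zol kit and libraries made with a NEBNext Ultra kit. CASAVA, STAR 2.6.1d and hg38 are named in the submitters' processing notes, without roles; the counting tool and its use of strand are not given in the sources used here. No column of another sample was present.

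Groups came from the sample titles. Counts were rounded to whole numbers, filtered with filterByExpr (18226 genes kept) and scaled by TMM. One quasi-likelihood fit in edgeR 4.0.16 (R 4.3.3) covered the 6 groups; p-values were adjusted by Benjamini-Hochberg over all tested genes, and standard errors are the absolute log2 fold change over the square root of F. The fit was tested on simulated data. CPM values are TMM-scaled, and log2 values used a prior count of 2. The common biological coefficient of variation was 0.104. Per the labels' protocols, each line was plated as biological replicates, so p-values measure the spread between cultures of 1 line.

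The 57 members, the gene lists and the tests were chosen with earlier results of these data known. All 57 could be named; library values are given for the member of each role group with the largest mean cytarabine effect among those called, for members with a called difference of effects or opposite calls in 2 lines (the latter were absent), for the 2 farthest members of each untreated comparison, and for E2F1, CDC6, CDT1, GMNN, MCM2, PCNA, POLA1 and SLBP. MCM7, GINS4, POLA2, E2F2 and LIG1 were added after their values were seen. Of the other lists, up to 4 genes a direction were named from those called alike in all 3 lines.

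Alternatives were RLE factors, the authors' library factors, no filter, a mean of at least 50 counts, DESeq2 1.42.0, a fit on the compared groups alone, a replicate block, leaving out each library and, added later, library totals without scaling factors.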

Additional observations from a re-analysis of the deposited data

Results flagged for a closer look

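MCM5 was singled out because the cytarabine effect differed between 2 lines by a test of the difference itself. The effect in WT minus that in EV was 0.43, with an adjusted p = 0.019 in edgeR over all tested genes. Treated WT libraries of MCM5 were at 142, 150 and 141 CPM and treated EV libraries at 124, 122 and 127 CPM, and untreated WT was lower than untreated EV by 0.22 on the log2 scale (adjusted p = 0.012). Over the other settings the adjusted p of this difference ran from 3.5e-07 in DESeq2 to 0.091 without untreated EV replicate 2.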

How the results depend on the processing

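Members called higher after cytarabine in EV numbered 9 with a mean of at least 50 counts, 8 with only EV fitted and 16 on library totals, a scaling chosen after seeing the data; lower, 11 on totals. In WT, totals gave 28 higher and 6 lower. In MUT, 8 were higher with the authors' factors, 8 fitted alone and 27 on totals, and 29, 10 and 6 were lower. Differences of effects called were, for WT minus EV, 3 in DESeq2 and 4 fitted alone; for MUT minus EV, 1 in DESeq2 and 2 on totals; for MUT minus WT, 1 with RLE factors, 2 with a mean of at least 50 counts and 4 in DESeq2. Fitted alone, untreated WT against EV gave 17, MUT against EV 3, MUT against WT 3 (11 on totals) and treated MUT against WT 34. The members' median in EV was -0.22 with the authors' factors, -0.17 without a filter, -0.089 with a mean of at least 50 counts and 0.043 on totals; in WT -0.055 (authors' factors), 0.039 (mean of at least 50) and 0.19 (totals); in MUT -0.14 (RLE), -0.19 (authors' factors), -0.12 (no filter), -0.085 (mean of at least 50), -0.14 (DESeq2) and 0.16 (totals). On totals RPA2 in MUT was 0.017 and E2F1 in EV 0.17. Totals moved the median of all genes as stated with the results. The cause of the differences between settings was not tested. Leaving out 1 library gave, after cytarabine, 4 to 7 higher and 19 to 22 lower in EV, 11 to 12 and 9 to 11 in WT, 10 to 16 and 14 to 27 in MUT; for differences of effects 0 to 2 in each; untreated, 2 to 4 (WT, EV), 13 to 27 (MUT, EV) and 12 to 29 (MUT, WT); treated, 7 to 13, 15 to 23 and 12 to 15. Same-numbered libraries correlated at medians of -0.03, -0.01 and -0.05 and at most at 0.27, 0.10 and 0.35, and 8 of 18 libraries were closest to their own number. These values do not settle whether the replicate numbers pair the libraries, and the main fit used no pairing. A replicate block gave 4 higher and 22 lower in EV, 12 and 11 in WT, 15 and 18 in MUT, 1, 0 and 0 differences of effects, 5, 16 and 21 untreated and 16, 26 and 18 treated. Counts of members under these settings have no share of all genes called beside them, so they describe the settings and not the members. Small effects are limited by 3 libraries a group, and E2F8 by its few counts.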
